A study of Mus musculus with 12 samples.

Results

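Expression of 7 genes of the Notch pathway was examined in the lungs of embryonic day 12.5 mice, with left and right lung sequenced apart. The 7 genes were taken from the deposited count table by their gene names, not by their values: the ligands Jag1 and Dll4, the receptors Notch1 and Notch2, the receptor-modifying enzyme Lfng and the target genes Hey1 and Heyl. All 7 had enough reads to be tested, out of 9519 tested genes and 31078 genes in the table. There were 4 groups of 3 libraries each: Intu-knockout left lung, Intu-knockout right lung, wild-type (WT) left lung and WT right lung, called mutant and WT here as labelled. All embryos had a C57BL/6 background and came from natural matings of parents that carried a knockout allele of Intu, which encodes a CPLANE protein required for the assembly of primary cilia. Which part of Intu was removed is not stated in the labels, nor is it stated whether replicate libraries were made from different embryos. Whole lung was used, so that airway epithelium, mesenchyme, vessels, nerves and mesothelium contributed to each value, and fewer cells of a type and less RNA per cell cannot be told apart.

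Notch receptors are single-pass membrane proteins that are activated by ligands on a neighbouring cell. Binding of a Delta-like or Jagged ligand leads to cleavage by an ADAM protease and by gamma-secretase, and the freed intracellular part joins the DNA-binding protein RBPJ and a Mastermind coactivator to switch on targets such as the Hes and Hey repressors. In the developing lung the pathway is known for setting neuroendocrine and secretory fates in the airway epithelium, for arterial identity in vessels and for recruitment of vascular smooth muscle.

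The libraries held 10290103 to 10753386 counts each in the table used here, which holds genes of chromosomes 1 to 7, 10 and X, and of 8 in part. Levels are given as CPM, counts scaled to the library's total in this table with TMM factors. Other Notch genes, among them Notch3, Notch4, Dll1, Jag2 and Hes1, were not analysed here. Intu itself stood at 26.2 to 31.4 CPM in the 6 mutant libraries, against 28.2 to 34.0 CPM in the 6 WT libraries, and was not called, which here means an adjusted p of 0.05 or more (log2 difference -0.16, SE 0.06, adjusted p = 0.162, edgeR's quasi-likelihood test with Benjamini-Hochberg adjustment). The Intu counts therefore do not check the labels by themselves. Genes of lung cell types were present across the 12 libraries. Foxa2 of the airway epithelium stood at 95.1 to 110.8 CPM, Tbx5 of the lung mesenchyme at 362 to 490 CPM and the endothelial receptor Kdr at 206 to 282 CPM. These genes are not restricted to lung, so they do not check the tissue label by themselves. The lung epithelial genes Nkx2-1 and Sftpc were not in the table used.

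Levels of the 7 genes were first set side by side per kilobase of annotated exon, to allow for genes of different length. The length sums all annotated exons of a gene (14232 bases for Notch1, 10782 for Notch2). It need not be that of the transcripts present in lung, and the order of the genes depends on it. Notch2 stood at 41.9 ± 3.1 CPM per kb (SD over 12 libraries), above every other of the 7 genes in each of the 12 libraries and 2.51 to 4.37 times the level per kb of Lfng in the same library. Lfng (12.9 ± 1.83 CPM per kb) and Notch1 (12.8 ± 1.51 CPM per kb) came next, and Lfng was the higher of this pair in 7 of 12 libraries. Heyl followed at 10.2 ± 2.61 CPM per kb and lay below Notch1 in 11 of 12 libraries. Hey1 (8.32 ± 0.642 CPM per kb), Dll4 (8.31 ± 1.85 CPM per kb) and Jag1 (7.81 ± 1.07 CPM per kb) were at the low end. Hey1 was above Dll4 in 8 of 12 libraries and Dll4 above Jag1 in 6 of 12, so these neighbours did not differ beyond their spread. Over all 12 libraries, genotypes pooled, the SD was 25.6% of the mean CPM for Heyl, 22.3% for Dll4 and 7.41% for Notch2. Within the 6 mutant libraries it was 27% for Dll4 and 23.8% for Heyl.

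**Figure D1:**
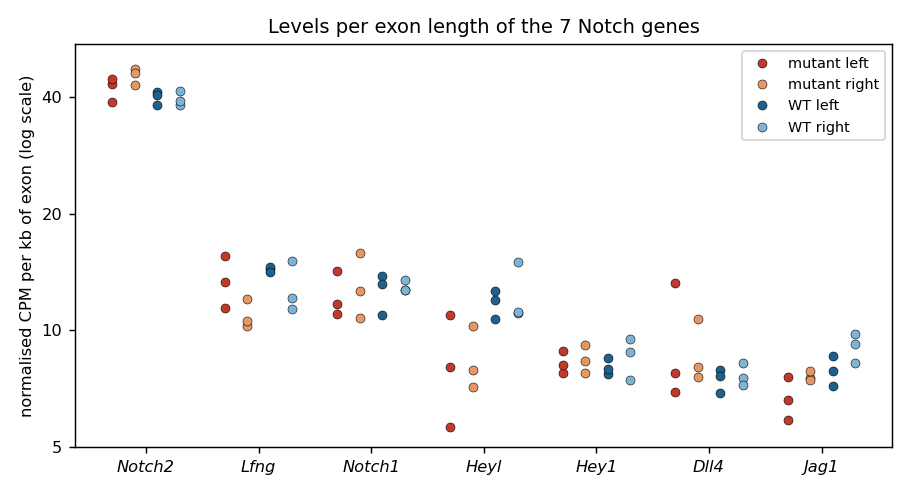
Level of each of the 7 Notch genes in each of the 12 libraries, in normalised CPM per kilobase of exon (log axis), with mutant left, mutant right, WT left and WT right libraries from left to right within a gene. Every Notch2 point (38.2 to 47.4 CPM per kb) lies above every point of the other 6 genes, and the mutant Heyl points (5.64 to 10.97) lie mostly below the WT ones (10.7 to 14.99).

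Mutant and WT lungs were then compared over both sides. Heyl, a transcriptional repressor of the Hairy/Enhancer-of-split type that Notch signals switch on, was lower in mutant lungs, at 68.8% of the WT level, and was the only one of the 7 genes called. The ligand Jag1 (84.3% of WT) and the receptor Notch2 (110% of WT) missed the threshold. Notch1 and Hey1 stood at 99% and 100% of the WT level. Of all 9519 genes tested, 5.7% were called in this comparison, and 3.62% were called lower, and nothing particular to the 7 genes is read from 1 call. None of the 7 had all mutant libraries on one side of all WT libraries over both lungs, which held for 4.02% of all genes. At an unadjusted p below 0.05 there were 3 of the 7 genes (Heyl, Jag1 and Notch2) against 19.7% of all genes. The median log2 difference of the 7 genes was -0.01, against 0.00 over all genes tested. Values by library are given below in the order of the library numbers 1, 2 and 3.

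Jag1 encodes a membrane-bound ligand of the Jagged type and lies on chromosome 2 (chr2:137081456-137116644, GRCm38, minus strand). It stood at 38.4, 34.1 and 44.2 CPM in mutant left lungs, against 50.2, 41.8 and 45.7 CPM in WT left lungs. Right lungs gave 44.0, 43.3 and 45.8 CPM in mutants, against 48.1, 53.6 and 57.0 CPM in WT. The right-lung groups did not overlap, whereas on the left mutant number 3 was above WT number 2. Over both sides the mutant minus WT log2 difference came to -0.25 (SE 0.07, 95% interval -0.40 to -0.10) with an adjusted p of 0.0561 by edgeR's quasi-likelihood test. Jag1 was called with DESeq2 (adjusted p = 0.0341), with the library number as a block (0.0352) and without low-count filtering (0.00861). It was also called with edgeR without mutant left number 3 (adjusted p = 0.0244), without WT right number 1 (0.0469) and without both libraries of mutant number 3 (0.044), and was not called in the other 21 of 27 alternatives, with adjusted p-values up to 0.171. These include the fit with left and right counts of one number summed. The block takes a number as shared by mutant and WT, whereas libraries of one number were alike only within a genotype.

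Dll4 encodes a Delta-like ligand best known from arterial and sprouting endothelium (chr2:119325784-119335962, plus strand). It stood at 29.9, 51.2 and 26.8 CPM in mutant left lungs, against 30.4, 26.5 and 29.5 CPM in WT left lungs. On the right its level was 29.2, 41.2 and 31.0 CPM in mutants, against 31.8, 29.0 and 27.8 CPM in WT. Both mutant libraries with number 2 were above all other libraries, and the other 4 mutant libraries (26.8 to 31.0 CPM) lay among the WT values (26.5 to 31.8 CPM). Combined over the sides, the log2 difference came to 0.26 (SE 0.14, 95% interval -0.05 to 0.56, adjusted p = 0.336, edgeR), and without both mutant libraries of number 2 it was 0.00 (adjusted p = 0.998). Of the 27 alternatives only the fit without low-count filtering called Dll4 (0.0233).

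Notch1 encodes a receptor used in endothelium, epithelium and many other tissues (chr2:26457903-26516663, minus strand). It stood at 157, 203 and 167 CPM in mutant left lungs, against 197, 156 and 187 CPM in WT left lungs. The right-lung values were 153, 226 and 180 CPM in mutants, against 181, 181 and 192 CPM in WT. The groups overlapped widely, with the mutant libraries spread over a wider range than the WT ones and number 2 highest among the mutants on both sides. The log2 difference of mutant minus WT lungs was -0.01 with a 95% interval of -0.21 to 0.18 (adjusted p = 0.957, edgeR), which leaves room for a change of that size in either direction. It was -0.15 without both mutant libraries of number 2 (adjusted p = 0.233) and 0.09 without those of number 1 (0.582).

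Notch2, the receptor with the highest level per kb here, lies on chromosome 3 (chr3:98013527-98150361, plus strand), 57.3 Mb from Intu. It stood at 467, 420 and 482 CPM in mutant left lungs, against 447, 412 and 438 CPM in WT left lungs. Right-lung levels were 465, 511 and 499 CPM in mutants, against 412, 423 and 448 CPM in WT. All right mutant libraries were above all right WT libraries, whereas on the left mutant number 2 lay within the WT range. Over both sides the mutant minus WT log2 difference came to 0.14 (SE 0.04, 95% interval 0.05 to 0.23, adjusted p = 0.0825, edgeR). Notch2 was called with DESeq2 (adjusted p = 0.0408), without low-count filtering (0.05 after rounding), without mutant left number 2 (0.0284) and without both mutant libraries of number 2 (0.044).

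Lfng encodes Lunatic fringe, a Golgi glycosyltransferase that extends O-fucose on Notch receptors and so alters their response to Delta-like and Jagged ligands. It lies on chromosome 5 (chr5:140607320-140615545, plus strand) and stood at 28.7, 38.9 and 33.4 CPM in mutant left lungs, against 36.1, 36.4 and 35.4 CPM in WT left lungs. On the right the level was 25.8, 30.1 and 26.5 CPM in mutants, against 28.4, 30.4 and 38.0 CPM in WT. The WT left libraries lay close together, and mutant and WT libraries overlapped on both sides. Combined over the sides, the log2 difference came to -0.16 (SE 0.09, 95% interval -0.35 to 0.02, adjusted p = 0.321, edgeR).

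Hey1 and Heyl encode related repressors of the bHLH-Orange family. Hey1 (chr3:8663359-8667256, minus strand, 31.9 Mb from Intu) stood at 25.3, 28.9 and 26.6 CPM in mutant left lungs, against 27.7, 25.2 and 26.0 CPM in WT left lungs. Its right-lung values were 25.3, 29.9 and 27.3 CPM in mutants, against 31.0, 24.3 and 28.7 CPM in WT. The groups overlapped on both sides, and mutant minus WT came to 0.01 on the log2 scale with a 95% interval of -0.15 to 0.16 (adjusted p = 0.981, edgeR).

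Heyl (chr4:123233556-123249875, plus strand) stood at 28.9, 56.1 and 41.1 CPM in mutant left lungs, against 61.3, 54.9 and 64.8 CPM in WT left lungs. Right lungs gave 40.4, 52.5 and 36.4 CPM in mutants, against 56.8, 57.0 and 76.6 CPM in WT. The right-lung groups did not overlap, and on the left mutant number 2 was above WT number 2 and below the other WT libraries. In group means this was 42.0 ± 13.6 CPM in mutant left lungs against 60.3 ± 5.04 CPM in WT left lungs, and 43.1 ± 8.37 CPM in mutant right lungs against 63.5 ± 11.4 CPM in WT right lungs (n = 3 each, ± SD). The log2 difference of mutant minus WT lungs was -0.54 (SE 0.14, 95% interval -0.84 to -0.24) with an adjusted p of 0.0365 by edgeR's quasi-likelihood test. Heyl thus stood at 68.8% and Hey1 at 100% of the WT level, a difference between the related repressors that was not tested.

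The Heyl call depended on single libraries. With left and right counts of one number summed, so that 3 mutant sums were set against 3 WT sums, the log2 difference was again -0.54 with an adjusted p of 0.181 (edgeR). The call was lost when any of 8 single libraries was left out, with adjusted p-values of 0.0791 (mutant left number 3), 0.0701 (mutant right number 1), 0.0929 (mutant right number 3), 0.0753, 0.0558 and 0.0796 (WT left numbers 1, 2 and 3), 0.0573 (WT right number 2) and 0.0888 (WT right number 3). It was also lost without both libraries of mutant number 1 (0.0742) or 3 (0.15) or of WT number 1 (0.0906), 2 (0.0791) or 3 (0.149). Without both libraries of mutant number 2 the difference was -0.75 (adjusted p = 0.00179), and Heyl was then called on the left (-0.79, adjusted p = 0.0319) and on the right (-0.72, adjusted p = 0.0378). The direction was the same in all 27 alternatives, with log2 differences between -0.75 and -0.41, and 13 of them kept the call.

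**Figure D2:**
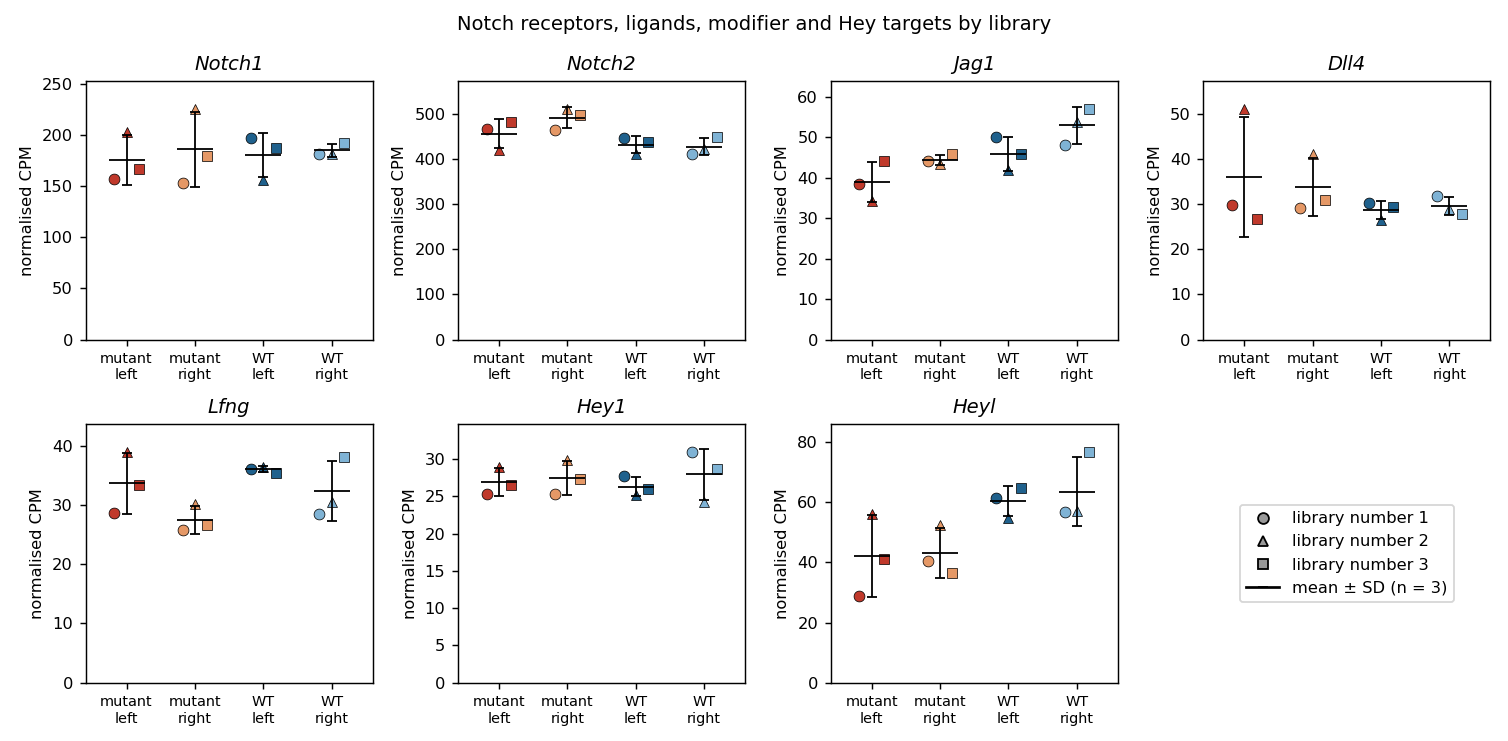
Normalised CPM of the 7 Notch genes in each library, with mutant left, mutant right, WT left and WT right groups from left to right, marker shape for the library number and the line with bars for mean ± SD of 3 libraries. Heyl is the gene whose mutant means (42.0 and 43.1 CPM) lie farthest below the WT means (60.3 and 63.5 CPM), and the number 2 mutant libraries (triangles) stand high for Dll4 (51.2 and 41.2 CPM) and Notch1 (203 and 226 CPM).

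Each side was also compared on its own. In left lungs 1.18% of all genes were called (0.305% higher, 0.872% lower) and none of the 7 by edgeR or DESeq2, with 2 of the 7 (Heyl and Jag1) against 10.9% of all genes at an unadjusted p below 0.05. On the log2 scale the left differences were -0.52 for Heyl (adjusted p = 0.324), -0.24 for Jag1 (0.384) and 0.08 for Notch2 (0.763), all by edgeR, and none of the 7 had groups that did not overlap, against 15.3% of all genes. In right lungs 1.51% of all genes were called (0.336% higher, 1.18% lower) and again none of the 7 by edgeR or DESeq2, with 3 of the 7 (Notch2, Heyl and Jag1) against 13.5% at an unadjusted p below 0.05. The right log2 differences were -0.56 for Heyl (adjusted p = 0.221), -0.25 for Jag1 (0.268) and 0.20 for Notch2 (0.156). These 3 genes were also those whose right-lung groups did not overlap, which held for 18.2% of all genes. Heyl and Jag1 had nearly the same difference on both sides, each compared against its own WT libraries.

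**Figure D3:**
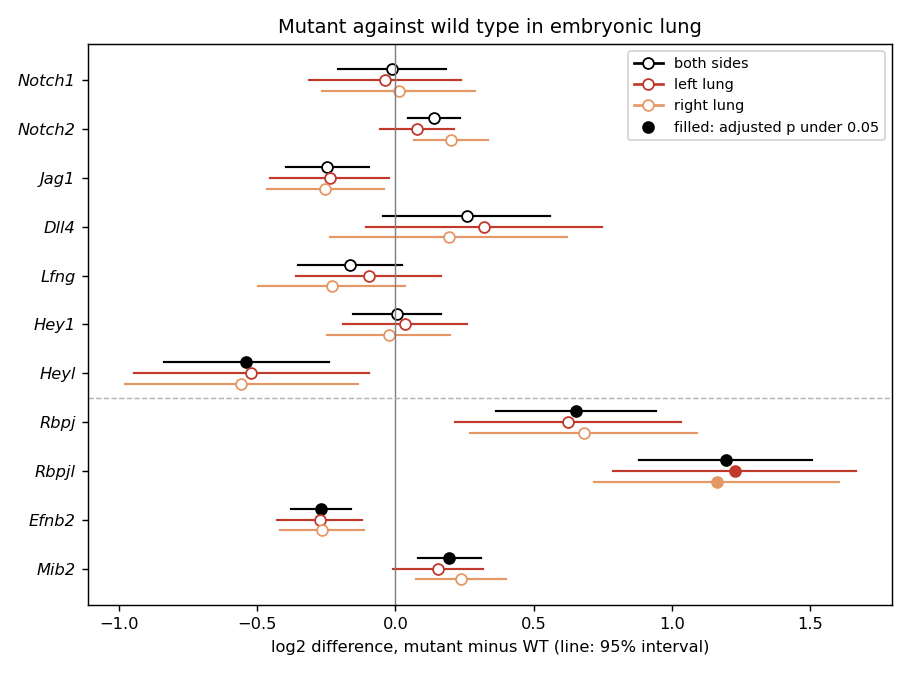
Log2 difference of mutant minus WT lungs with its 95% interval, over both sides (black), in left lungs (red) and in right lungs (orange), for the 7 genes above the dashed line and 4 genes of the other Notch lists below it; filled points had an adjusted p under 0.05 (edgeR). Among the 7 genes the Heyl point for both sides at -0.54 is filled, and among the others Rbpjl is filled on each side (1.23 and 1.16).

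Left and right lung were compared within each genotype, as the study's design allows. None of the 7 genes was called in mutant or in WT lungs by edgeR, DESeq2 or edgeR with the library number as a block, and 1 of the 7 (Lfng) in mutant and 0 of the 7 in WT lungs had an unadjusted p below 0.05, against 3.76% of all genes in mutant and 2.62% in WT lungs. Over all genes edgeR called 0% in mutant and 0.0105% in WT lungs, and with the block 43 and 63 genes. Left and right libraries overlapped for each of the 7 genes, while they did not for 8.18% of all genes in mutant and 8.56% in WT lungs. In mutant lungs Lfng had the smallest unadjusted p of the 7 (0.0339), at 33.7 ± 5.13 CPM on the left and 27.5 ± 2.34 CPM on the right (log2 difference 0.29, 95% interval 0.03 to 0.56, adjusted p = 1). Lfng was also higher on the left in WT lungs by value, at 36.0 ± 0.514 CPM on the left and 32.3 ± 5.06 CPM on the right (0.16, adjusted p = 1). Jag1 had the lowest log2 differences between sides in both genotypes, -0.19 in mutant and -0.21 in WT lungs (adjusted p = 1 each). Jag1 averaged 38.9 ± 5.05 CPM on the left and 44.4 ± 1.28 CPM on the right in mutants, and 45.9 ± 4.16 CPM on the left and 52.9 ± 4.53 CPM on the right in WT (SD, n = 3 each). Within either genotype, no difference between sides was called for the 7 genes at this depth and number of libraries. A comparison of the sides over both genotypes was not run.

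The difference between the mutant effects on the left and on the right was tested as an interaction. No gene of the 9519 was called (0% with edgeR, 0 with DESeq2, 2 genes with the library number as a block, and 124 genes or 1.3% at an unadjusted p below 0.05 with edgeR). The 7 genes had interaction terms between -0.12 and 0.13 on the log2 scale and unadjusted p-values from 0.185 (Notch2) to 0.913 (Jag1). For Heyl the term was 0.04 with a 95% interval of -0.56 to 0.63, so a sizeable difference between sides in either direction was within the error.

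Libraries with number 2 stood apart among the mutants for several of these genes. Notch1, Dll4, Hey1 and Heyl were each higher in both mutant number 2 libraries than in all 4 other mutant libraries, whereas Notch2, Jag1 and Lfng were not. The same held for Nrarp, a Notch-induced inhibitor of the pathway, at 18.7 CPM on the left and 14.8 CPM on the right, against 9.29 to 11.2 CPM in the other mutant libraries. It also held for 10 of the 13 tested genes of the endothelial list and not for Sox18, Aplnr and Cd34, and the list summed to 2080 CPM on the left and 1942 CPM on the right in these libraries, against 1491 to 1688 CPM in the other mutant libraries. Chosen from the 10 after their values were seen, the examples are Apln (149 and 105 CPM, against 38.9 to 64.0 CPM), Flt1 (93.9 and 112 CPM, against 74.8 to 80.9 CPM) and Vwf (57.7 and 71.8 CPM, against 38.4 to 48.1 CPM). The metabolic gene Pdk1, which limits the entry of pyruvate into the citric acid cycle, stood at 193 and 192 CPM in these libraries, against 82.2 to 109.6 CPM in the other mutant libraries and 71.3 to 91.2 CPM in WT. In the lung epithelial list 4 of 7 genes were also higher in both number 2 libraries. Its sums were 708.5 and 684.8 CPM, against 577.9 to 637.3 CPM in the other mutant libraries. Mesenchymal sums were higher as well (5212 and 5448 CPM, against 4941 to 5010 CPM), but only 2 of the 9 genes were higher in both libraries. Col3a1 alone, at 3416 and 3672 CPM, made up most of these 2 sums. Arterial sums were also higher (603.2 and 572.4 CPM, against 501 to 533.6 CPM), with 3 of 6 genes higher in both libraries. Efnb2 and Hey2, tested genes of that list outside the 6, were not higher in both. The mesothelial and myeloid sums were lower in both number 2 libraries. How many of all tested genes were higher in both mutant number 2 libraries was not counted. Nothing particular to Notch or endothelial genes is therefore read from these counts. The part of the listed genes and Pdk1 in the Notch values of the number 2 libraries was not tested. Without both of these libraries 2 of the 7 genes were called over both sides, Heyl (adjusted p = 0.00179) and Notch2 (0.044, edgeR), among 553 genes called in that fit.

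The rest of the pathway was read from lists of 81 other Notch genes, of which 45 were in the table and 42 were tested. Over both sides 3 of the 42 were higher in mutant lungs (Rbpj, Rbpjl and Mib2) and 1 was lower (Efnb2), against 2.08% and 3.62% of all genes, and 12 of the 42 against 19.7% of all genes had an unadjusted p below 0.05. The median log2 difference of the 42 was 0.01, against 0.00 over all genes. By role, the called genes were 2 of 13 tested genes of the transcription complex, 1 of 10 receptor and ligand modifiers and 1 of 9 targets, and none of 5 other ligands and none of 5 genes of receptor cleavage. The list of the transcription complex holds Rbpjl, which is not itself a mediator of Notch signals, and without it 2 of the counted genes were higher (Rbpj and Mib2). On each side Rbpjl alone of the 42 was called, and none was called between left and right by edgeR, with 3 of the 42 in mutant lungs (3.76% of all genes) and 0 in WT lungs (2.62% of all genes) at an unadjusted p below 0.05.

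Rbpj encodes the DNA-binding protein through which all Notch receptors act on their targets (chr5:53466152-53657362, plus strand). It stood at 187, 168 and 161 CPM in mutant left lungs, against 100.2, 84.1 and 151 CPM in WT left lungs. On the right its level was 185, 172 and 167 CPM in mutants, against 102, 83.5 and 142 CPM in WT. All 6 mutant libraries were above all 6 WT libraries, as for 4.02% of all genes in either direction, and the WT libraries of number 3 were close to the mutants. Over both sides the mutant minus WT log2 difference came to 0.65 (SE 0.14, 95% interval 0.36 to 0.94, adjusted p = 0.0112, edgeR), with 0.62 on the left (adjusted p = 0.17) and 0.68 on the right (0.115). The call was lost with left and right counts summed (adjusted p = 0.128) and without both WT libraries of number 1 (0.0693).

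The Rbpj value is uncertain because the gene has a near-identical processed pseudogene, Rbpj-ps3, on chromosome 6 (chr6:46529354-46530794, minus strand). In the GENCODE transcripts 89% of all 50-base stretches of Rbpj-ps3 also occur in Rbpj transcripts. Rbpj-ps3 stood at 5.67, 8.34 and 10.01 CPM in mutant left lungs, against 22.2, 21.3 and 13.4 CPM in WT left lungs, and at 5.27, 11.3 and 10.6 CPM in mutant right lungs, against 22.7, 25.3 and 12.4 CPM in WT right lungs. The copy was thus lower in all mutant libraries (log2 difference -1.20, SE 0.22, adjusted p = 0.00567, edgeR), the opposite direction to Rbpj. The WT number 3 libraries, which had the most Rbpj reads among WT, had the fewest Rbpj-ps3 reads among WT, and the mutant number 1 libraries, with the most Rbpj reads of all, had the fewest Rbpj-ps3 reads of all. With the counts of both loci summed, an alternative chosen after these values were seen, the difference for Rbpj was 0.49 (adjusted p = 0.00985). How reads that match both loci were counted is not given in the sources used here, and its part in the Rbpj value was not tested. The same search found no 50-base stretch of Jag1, Lfng, Hey1 or Heyl in the transcripts of another gene, and 9.11% of those of Notch1, 3.76% of those of Notch2 and 4.33% of those of Dll4 in transcripts that overlap these genes.

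Rbpjl encodes a paralogue of RBPJ known from the exocrine pancreas, where it works in the PTF1 complex and not in Notch signalling, and was listed here as a relative of RBPJ (chr2:164403141-164415448, plus strand). It stood at 16.1, 26.4 and 18.8 CPM in mutant left lungs, against 8.26, 8.03 and 9.91 CPM in WT left lungs. The right-lung values were 13.8, 23.1 and 18.0 CPM in mutants, against 7.84, 8.30 and 8.42 CPM in WT. No mutant library overlapped with WT, and the mutant number 2 libraries were highest. Combined over the sides, the log2 difference came to 1.19 (SE 0.14, 95% interval 0.88 to 1.51, adjusted p = 0.000274, edgeR), and Rbpjl was called in all 27 alternatives, with differences of 0.98 to 1.35. Its neighbour Matn4, a cartilage matrix gene on the opposite strand, overlaps its start and shares 149 exon bases with it, 2.6% of the Rbpjl exons. Matn4 stood at 80.4 to 112 CPM in mutant libraries, against 37.4 to 48.3 CPM in WT libraries (log2 difference 1.16, adjusted p = 1.15e-06). Whether counting used strand is not given in the sources used here, so reads of the pair cannot be told apart where the genes overlap.

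Efnb2 encodes ephrin-B2, a membrane protein that marks arterial endothelium and that Notch signals induce there (chr8:8617434-8661242, minus strand). It stood at 166, 188 and 191 CPM in mutant left lungs, against 224, 210 and 226 CPM in WT left lungs. Right-lung levels were 157, 189 and 178 CPM in mutants, against 211, 209 and 210 CPM in WT. All mutant libraries were below all WT libraries, and the log2 difference was -0.27 (SE 0.05, 95% interval -0.38 to -0.16, adjusted p = 0.00567, edgeR). With left and right counts summed the call was lost (adjusted p = 0.0867), and Efnb2 kept it in the other 26 of 27 alternatives.

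Mib2 encodes a ubiquitin ligase that promotes the uptake of Notch ligands (chr4:155654677-155669198, minus strand). It stood at 81.9, 90.9 and 77.2 CPM in mutant left lungs, against 76.8, 69.3 and 78.7 CPM in WT left lungs. On the right the level was 77.9, 85.4 and 85.2 CPM in mutants, against 72.5, 72.4 and 66.1 CPM in WT. The groups overlapped on the left and not on the right. The log2 difference of mutant minus WT lungs was 0.19 (SE 0.05) with an adjusted p of 0.0485 (edgeR), at the edge of the threshold: it was lost in 20 of 27 alternatives, with adjusted p-values up to 0.163. Of the 12 single libraries only leaving out mutant left number 3 (0.0373) or mutant right number 1 (0.0381) kept the call, and the highest adjusted p without 1 library was 0.109 (WT left number 2).

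Other named genes of the pathway were not called over both sides. Nrarp had a log2 difference of 0.50 (SE 0.18, adjusted p = 0.121, edgeR) and Hey2, the third Hey repressor, -0.48 (SE 0.17, adjusted p = 0.128), at 2.89 to 4.98 CPM in mutant and 4.30 to 6.89 CPM in WT libraries. The divergent ligand Dll3 was close to the detection limit, with 1 to 10 counts in mutant and 5 to 20 counts in WT libraries (-1.24, SE 0.46, adjusted p = 0.144). Hes6, a Hes-related factor of neuronal precursors, had -0.12 (adjusted p = 0.24). The gamma-secretase genes Psen2 and Ncstn had -0.11 (0.442) and -0.08 (0.408), and the coactivator Maml3 had 0.04 (0.728). Hes5, a standard Notch target, had at most 4 counts in any library and was not tested; Hes2 and Hes3 were not tested either.

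**Figure D4:**
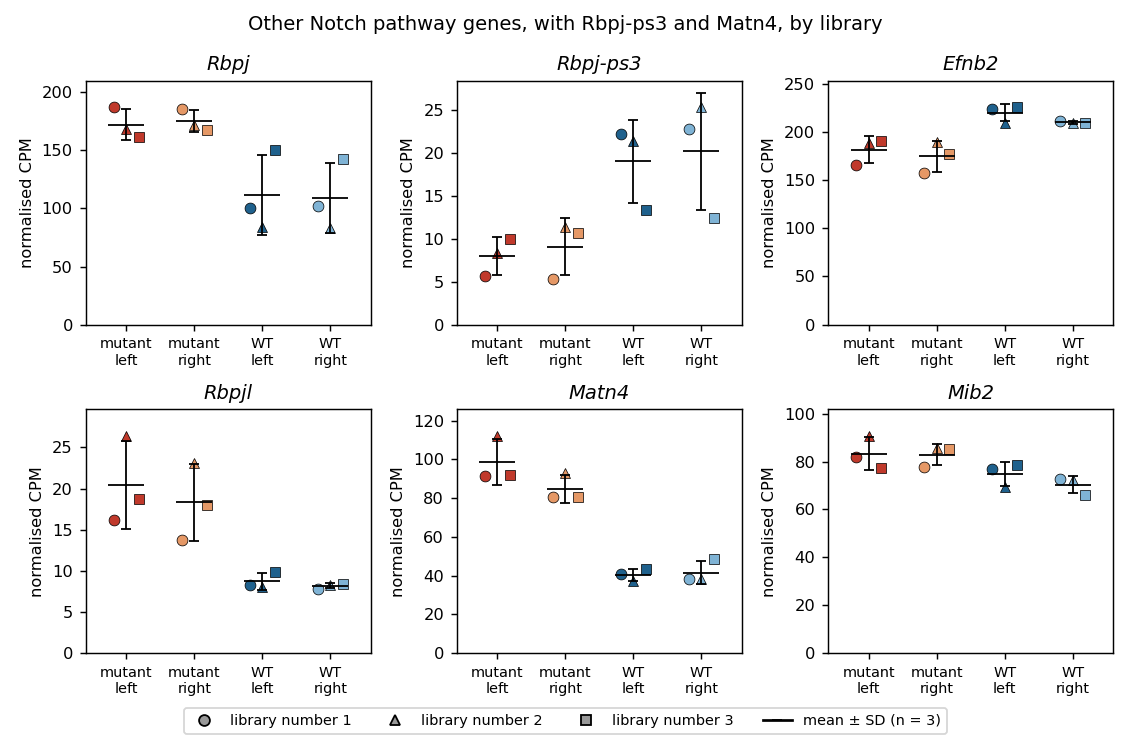
Normalised CPM by library of the 4 called genes of the other Notch lists (Rbpj, Efnb2, Rbpjl and Mib2) and of 2 genes that share sequence with them (Rbpj-ps3 and Matn4), with mutant left, mutant right, WT left and WT right groups from left to right and mean ± SD of 3 libraries. Rbpj and Rbpj-ps3 run in opposite directions, with the WT number 3 libraries (squares; 151 and 142 CPM for Rbpj, 13.4 and 12.4 CPM for Rbpj-ps3) between the other WT and the mutant libraries, and Rbpjl and Matn4 are both higher in every mutant library.

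The RBPJ protein binds DNA at the letters GTGGGAA, and the 250 bases before the annotated start were searched for it on both strands in the RefSeq promoter windows (GRCm38.p6), which were found for 12 of 14 genes looked for. Hey1 and Heyl had no entry. Of the other 5 of the 7 genes, Lfng alone held the motif, at 109 to 103 bases before the start. Among the other pathway genes it was found for Hey2 (opposite strand) and Rbpjl. The RefSeq starts need not match those of the genes as counted. The Notch1 window (chr2:26503823-26504072) lay inside the counted gene, and the Jag1 window (chr2:137116521-137116770) partly overlapped it. Other starts of the 5 genes were not searched. The motif is present in 5.43% of all 32536 windows and its longer form CGTGGGAA, which Lfng, Hey2 and Rbpjl hold, in 0.642%. In Lfng the motif overlaps a CACGTG, the E-box that Hey repressors can bind, which is present in 6.04% of all windows. The windows of Lfng (chr5:140607091-140607340, plus strand) and Hey2 (chr10:30842784-30843033, minus strand) are shown because they hold these letters, with GTGGGAA or its reverse complement TTCCCAC in capitals. Neither gene was called in any comparison, and a match of letters is a description only.
Lfng: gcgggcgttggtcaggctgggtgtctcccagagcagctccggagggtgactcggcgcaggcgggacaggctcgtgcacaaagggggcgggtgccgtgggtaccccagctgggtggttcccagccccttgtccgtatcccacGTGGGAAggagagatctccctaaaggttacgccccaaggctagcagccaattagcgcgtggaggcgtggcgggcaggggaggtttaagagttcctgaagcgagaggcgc
Hey2: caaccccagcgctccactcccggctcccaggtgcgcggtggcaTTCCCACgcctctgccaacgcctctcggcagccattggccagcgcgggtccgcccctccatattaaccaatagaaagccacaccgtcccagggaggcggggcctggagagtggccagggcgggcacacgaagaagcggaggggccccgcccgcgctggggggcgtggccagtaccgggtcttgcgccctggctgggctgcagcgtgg

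Markers of cell types were read beside the Notch genes. The smooth muscle and mural list, of which 8 of 15 genes were in the table, summed to 366 to 480 CPM in mutant libraries, against 707 to 921 CPM in WT libraries, and 5 of the 8 were called lower, against 3.62% of all genes. The contractile genes Actg2 (log2 difference -1.99), Synpo2 (-2.04) and Lmod1 (-0.92) were among them, whereas the pericyte genes Rgs5 (0.16, adjusted p = 0.704), Abcc9 (0.40, 0.189) and Kcnj8 (0.39, 0.276) were not called. The sum had no overlap between genotypes, while within the mutants the number 2 libraries, highest in Heyl, did not have the highest sums. Heyl is known from vascular smooth muscle, and the part of the smooth muscle genes in its lower level was not tested. No gene of the list was at 0 in all libraries.

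**Figure D5:**
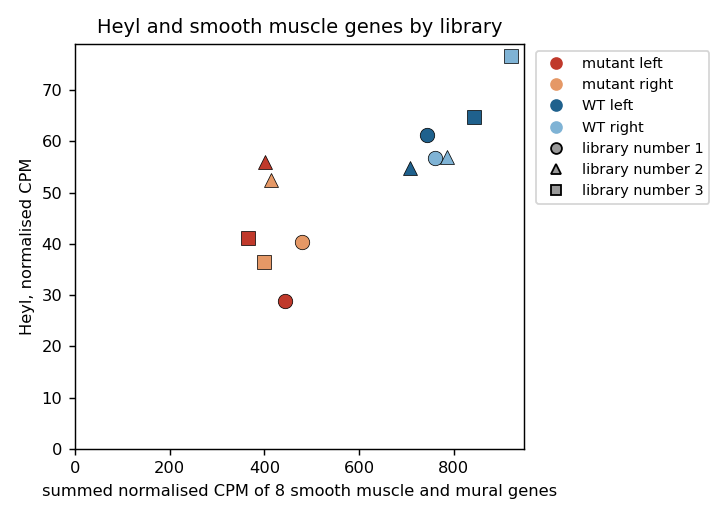
Heyl level against the summed level of 8 smooth muscle and mural genes, both in normalised CPM, 1 point per library with colour for the group and shape for the library number. Mutant libraries lie at the low end of the summed level (366 to 480 CPM) and WT libraries at the high end (707 to 921 CPM), and the mutant number 2 libraries (56.1 and 52.5 CPM of Heyl) are near the lowest WT Heyl levels at a low summed level.

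The endothelial list, 13 of 19 genes tested, summed to 1491 to 2080 CPM in mutant libraries, against 1580 to 1737 CPM in WT libraries, with 1 gene higher (Sox18, 0.21, adjusted p = 0.0257, edgeR). The arterial list, 8 of 9 genes tested, summed to 501 to 603 CPM in mutant and 536 to 584 CPM in WT libraries, with Efnb2 the 1 gene called. The lung epithelial list, 7 of 20 genes tested, summed to 578 to 708 CPM in mutant and 607 to 681 CPM in WT libraries, with 1 gene called higher (2.08% of all genes). These sums overlapped between the genotypes. In the arterial list, which holds Efnb2, 6 of 8 genes had a log2 difference below 0, with a median of -0.22 against 0.00 over all genes, and 7 of 8 against 19.7% of all genes had an unadjusted p below 0.05. Without both mutant libraries of number 2, left out after their values were seen, the arterial sum was 501 to 533.6 CPM in the other mutant libraries. WT libraries summed to 535.8 to 583.5 CPM, a narrow gap. The sum contains Efnb2 itself, at 157 to 191 CPM in mutant and 209 to 226 CPM in WT libraries. A sum without Efnb2 was not formed, so this gap says nothing about the other arterial genes. The part of the arterial genes in the lower Efnb2 level was not tested. The neuroendocrine and neuron list summed to 25.6 to 34.5 CPM in mutant and 38.5 to 69.9 CPM in WT libraries, with 8 of 9 tested genes called lower (3.62% of all genes) and Neurod1 at 0 in all libraries; Dll3 is on this list as well. The myeloid list summed to 163 to 210 CPM in mutant and 230 to 265 CPM in WT libraries, with 6 of 9 genes called lower (3.62% of all genes). The mesenchymal list summed to 4941 to 5448 CPM in mutant and 4658 to 4970 CPM in WT libraries, and the mesothelial list to 234 to 314 CPM in mutant and 262 to 339 CPM in WT libraries. Of 9 tested mesenchymal genes 2 were called higher and 2 lower, with log2 differences from -1.10 to 0.21. Col3a1 alone, at 2750 to 3672 CPM, made up most of that sum. Of 3 tested mesothelial genes 1 was called lower. Over all genes 2.08% were called higher and 3.62% lower. The part of these lists in the Notch values was not tested.

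For each of the 7 genes the tested genes with the most similar levels over the 12 libraries were looked up among 7143 genes with a mean of at least 5 CPM, by Pearson's r of log2 CPM; the libraries share genotype, side and number, so the values are descriptions. Heyl was most like Adgre5 (r = 0.956, Spearman's rho = 0.951) and Il1rl2 (0.952, 0.951), and r was 0.965 and 0.913 without the 2 libraries farthest from the median Heyl level. Notch1 was most like Pde3a (0.944, 0.853) and Col6a3 (0.924, 0.860), and Notch2 most like Svep1 (0.911, 0.867) and Usp37 (0.891, 0.888). Lfng was most like Tti1 (0.910, 0.909) and Tspan7 (0.872, 0.881), and Hey1 most like Tlr3 (0.848, 0.762) and Klhdc10 (0.846, 0.895). For Notch1, Notch2, Lfng and Hey1, r was 0.759 to 0.887 without the 2 libraries farthest from each gene's median. Jag1 was most like Cdk6 (0.865, 0.629) and Gata5 (0.860, 0.846), and r fell to 0.583 and 0.787 without its 2 farthest libraries. For Dll4 the genes were Bhlhe40 (0.939, 0.350) and Apln (0.927, 0.580), and r was -0.03 and 0.29 without the 2 farthest libraries, so this likeness rested on the mutant number 2 libraries.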

How the data were processed

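The authors deposited raw counts of reads per gene for 12 libraries. Per the submitters' processing notes, FastQC, HISAT2 and featureCounts were used on GRCm38; their versions and the strand setting were not given in the sources used here, nor how reads with several matches were treated. The table as used ends within a row, and that 1 incomplete row was left out. Symbols were matched by gene ID for 99.5% of genes. The labels do not tie replicates to different embryos, so p-values cover the spread between these libraries only, and that spread may be technical. No 2 libraries of a group were duplicates (chi-square per degree of freedom 4.34 to 12.8).

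Genes were filtered with filterByExpr (minimum count 10, minimum total 15), libraries were scaled with TMM factors of 0.992 to 1.01, and all 12 were fitted in 1 model of 4 groups by glmQLFit and glmQLFTest of edgeR 4.0.16 in R 4.3.3, with 8 residual degrees of freedom. P-values were adjusted by Benjamini-Hochberg over all 9519 tested genes (threshold 0.05). Interaction terms are left minus right of the mutant minus WT difference.

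The labels give each library a number. Deviations from group means correlated at 0.253 to 0.486 between left and right libraries of one number within a genotype, and at -0.121 to -0.0416 across genotypes. On this hint from the data, not a statement of the labels, same-numbered left and right libraries of one genotype were treated as pairs in some alternatives only. The main fit had no term for pairs, so its p-values over both sides count left and right libraries as independent. With left and right summed, 0 of the 7 genes were called over both sides. Alternatives were other scalings and filters, DESeq2 1.42.0, limma-voom 3.58.1 with and without pairs, a replicate block, summed sides and left-out libraries. The 7 genes and all lists were chosen with earlier results of these data known; named genes were the 7, called pathway genes and 9 set genes. Apln, Bhlhe40, Flt1, Vwf, Pdk1, Matn4 and Rbpj-ps3 were named after their values were seen. Sequences are from RefSeq, and 50-base stretches were compared over GENCODE vM21 transcripts.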

Additional observations from a re-analysis of the deposited data

How the results depend on the processing

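Over both sides, Heyl, Jag1, Notch2, Dll4 and Lfng kept their direction in all 27 alternatives run, and Notch1 and Hey1, both close to 0, reversed in 11 and 6. Single libraries and the treatment of pairs changed calls, as given below. Each of the 7 genes had at least 259 counts in every library, and no alternative with fewer reads was run.

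Without low-count filtering 1084 genes were called over both sides, 510 on the left, 595 on the right, 31 and 46 between left and right in mutant and WT lungs and 6 for the interaction; 4 of the 7 genes were then called over both sides (Notch2, Jag1, Dll4 and Heyl) and 1 on each side (Heyl). DESeq2 called 3 of the 7 over both sides (Notch2, Jag1 and Heyl) among 665 genes, 193 genes on the left, 224 on the right, and 4 and 11 between sides in mutant and WT lungs. With the replicate block, 2 of the 7 were called over both sides (Jag1 and Heyl) among 652 genes, 177 genes on the left, 43 and 63 between sides in mutant and WT lungs, and 2 for the interaction. Limma-voom with pairs as a random effect called 344 genes over both sides and 2 and 13 between sides in mutant and WT lungs. With only the groups compared, 49 genes were called on the left and 8 between WT sides. With left and right summed, 141 genes and 0 of the 7 were called over both sides. In limma-voom without and with pairs, Notch1 on the right was at -0.007 in both, and the Heyl interaction at -0.010 and -0.009.

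Leaving out 1 library or 1 number of a genotype gave 263 to 636 called genes and 0 to 2 of the 7 over both sides, 45 to 137 genes and 0 to 1 of the 7 on the left, 48 to 175 genes and 0 to 1 of the 7 on the right, and 0 to 1 and 0 to 7 genes between sides in mutant and WT lungs. Log2 differences then ranged for Notch1 from -0.153 to 0.089 over both sides, -0.156 to 0.041 on the left and -0.151 to 0.136 on the right. Hey1 ranged from -0.056 to 0.064, -0.019 to 0.084 and -0.118 to 0.060. On the left Dll4 ranged from -0.023 to 0.496 and Lfng from -0.214 to 0.012. Between WT sides the ranges were -0.115 to 0.056 for Notch1, -0.033 to 0.048 for Notch2, -0.096 to 0.021 for Dll4 and -0.155 to 0.084 for Heyl. Between mutant sides they were -0.207 to 0.080 for Notch1, -0.256 to 0.265 for Dll4, -0.085 to 0.038 for Hey1 and -0.304 to 0.175 for Heyl. For the interaction they were -0.172 to 0.115 for Notch1, -0.089 to 0.144 for Jag1, -0.217 to 0.300 for Dll4, -0.011 to 0.241 for Lfng, -0.024 to 0.151 for Hey1 and -0.230 to 0.249 for Heyl. The causes were not tested.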
